A study of Mus musculus with 52 samples.

Results

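Myc and 39 genes that build ribosomes were followed in mouse CD8+ T cells through activation by beads or by dendritic cells (DCs), with and without a coating of the chemokine CCL21 and the adhesion ligand ICAM1. The 40 genes were taken by symbol from the table of 14626 genes, and each had a row. The cells were CD8+ T cells from the spleens of OT-I mice, which carry a transgenic T cell receptor for an ovalbumin peptide, so all 9 groups share this genotype and nearly all T cells have the same specificity. At day 0 the purified cells had received no treatment. Bead cells were stimulated through CD3 and CD28 with IL-2 present and were taken at day 3 and day 7, and DC cells met ovalbumin peptide on DCs from C57BL/6 spleens and were taken at day 3 and day 4. Each culture stood in a well with the CCL21 and ICAM1 coating or in a bare well, so that each activation and time point has a coated and an uncoated group. The question behind the design is why CCL21 with ICAM1 changes killing and proliferation differently after bead and after DC activation. No group of DC cells was measured at day 7 and none of bead cells at day 4, so the late time points of the activations cannot be compared at a matched day. DC cells of day 4 carry the M numbers 6 to 10 in their titles and those of day 3 the numbers 1 to 5, so the day and the set of samples cannot be told apart.

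Myc is a transcription factor of the basic helix-loop-helix family that binds DNA as a dimer with Max, often at the E-box letters CACGTG. T cells raise it soon after antigen receptor stimulation, and it is known for driving cell growth before division. Ribosome biogenesis begins in the nucleolus, where RNA polymerase I copies the ribosomal DNA. The transcript is then modified by small nucleolar ribonucleoproteins (snoRNPs), and separate sets of factors fold, cut and assemble the small and the large subunit. The 39 genes were grouped by these roles into 5 nucleolar proteins, 7 snoRNP proteins, 2 polymerase I subunits, 11 small subunit factors and 14 large subunit factors.

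RNA was measured by bulk MARS-seq, which counts the 3′ ends of transcripts, in 52 libraries of 382924 to 4641802 counts. The 16 DC libraries of day 3 have 30 or 120 in their titles, which the labels do not explain, and were summed per M number and coating, leaving 45 samples with 3 to 9 per group. Nothing states that the M numbers in the titles are separate animals, so a p-value measures only the spread between these samples. Nop10, an snoRNP protein, stayed at group means of 0.288 to 1.98 CPM (counts scaled to a common library size) and was too low to test, so 39 members were tested in each comparison, or 38 in coated against uncoated bead cells at day 7, where Bysl also fell below the filter. A gene was called when its edgeR adjusted p over all genes tested was under 0.05. The CD8 T cell markers summed to group means of 1370 to 3600 CPM, whereas Cd4 did not exceed 5.79 CPM in any group. Day 0 samples carried much RNA of other blood cells: erythroid markers summed to 25603 to 135582 CPM, DC and myeloid markers to 10816 to 20134 CPM and B cell markers to 3236 to 6515 CPM. In the other groups B cell markers had means of 481 to 2266 CPM. Among the activated samples the uncoated DC sample M8 of day 4 had the highest DC and myeloid sum, 1368 CPM. In bulk RNA, fewer cells of a type and less RNA per cell cannot be told apart.

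Promoter sequence was looked at because Myc dimers bind E-boxes. RefSeq promoter entries (GRCm38.p6, 250 bases before the start and 50 from it on) were found for 34 of the 40 members, and Myc, Npm1, Fbl, Bop1, Rrp12 and Rrs1 had none. CACGTG, which reads the same on both strands, stood in 6 of the 34 windows (17.6%), against 8.09% of the 27025 genes with an entry and 11.7% of the 9831 such genes with a row in the count table. In the 50 bases from the start on, 5 members held it (14.7%), against 1.28% of all genes with an entry and 1.93% of those in the count table. In the 250 bases before the start it went the other way, with 1 member (2.94%) against 6.86% of all genes with an entry. The sites are shown 5′ to 3′ on the gene's strand with the E-box in capitals, since they are the letters that Myc is known to bind. A match is a description of the sequence, and binding was not measured.
Nop2, chr6:125131811-125131840, plus strand: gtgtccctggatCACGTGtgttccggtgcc
Pes1, chr11:3963965-3963994, plus strand: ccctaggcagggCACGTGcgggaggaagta
Tsr1, chr11:74898092-74898121, plus strand: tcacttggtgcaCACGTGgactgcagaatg
Utp4, chr8:106893643-106893672, plus strand: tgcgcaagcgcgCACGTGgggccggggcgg
Utp20, chr10:88826765-88826794, minus strand: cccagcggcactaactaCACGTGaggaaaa
Wdr43, chr17:71616220-71616249, plus strand: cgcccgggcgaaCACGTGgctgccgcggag
The E-box of Nop2 lay before the start in its RefSeq promoter entry, and the other 5 lay just after the start in theirs. The gene span of Wdr43 given below begins further upstream, at chr17:71615895. These 6 genes did not share a role: Nop2 and Pes1 act on the large subunit, and Tsr1, Utp4, Utp20 and Wdr43 on the small subunit.

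The ribosome biogenesis genes were high at day 3, lower at bead day 7, and close to their day 0 level in uncoated DC cells at day 4. Their summed level was 3599 ± 127 CPM at day 0 (SD, n = 9), 9817 ± 113 CPM in uncoated bead cells at day 3 (n = 3) and 10545 ± 467 CPM in uncoated DC cells at day 3 (n = 4). It was 5445 ± 1318 CPM in uncoated bead cells at day 7 (n = 5) and 3769 ± 202 CPM in uncoated DC cells at day 4 (n = 5). In coated cells the sum was 8899 ± 1824 CPM at bead day 3 (n = 5), 7204 ± 466 CPM at bead day 7 (n = 4), 12354 ± 560 CPM at DC day 3 (n = 5) and 5135 ± 1304 CPM at DC day 4 (n = 5). All DC day 3 samples and all uncoated bead day 3 samples lay above every sample of day 0, bead day 7 and DC day 4. By group mean, 32 of the 40 genes were highest in coated DC cells at day 3, 20 were lowest in uncoated DC cells at day 4 and 15 were lowest at day 0. Coated DC day 3 samples hold more libraries titled 30 than 120, uncoated ones fewer, and libraries titled 120 had the lower sum in every pair. With Myc included, those titled 120 of M1, M4 and M5 summed to 10322, 8961 and 11305 CPM in coated cells. In uncoated cells they summed to 8608, 10820 and 10067 CPM, so M4 went the other way.

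**Figure D1:**
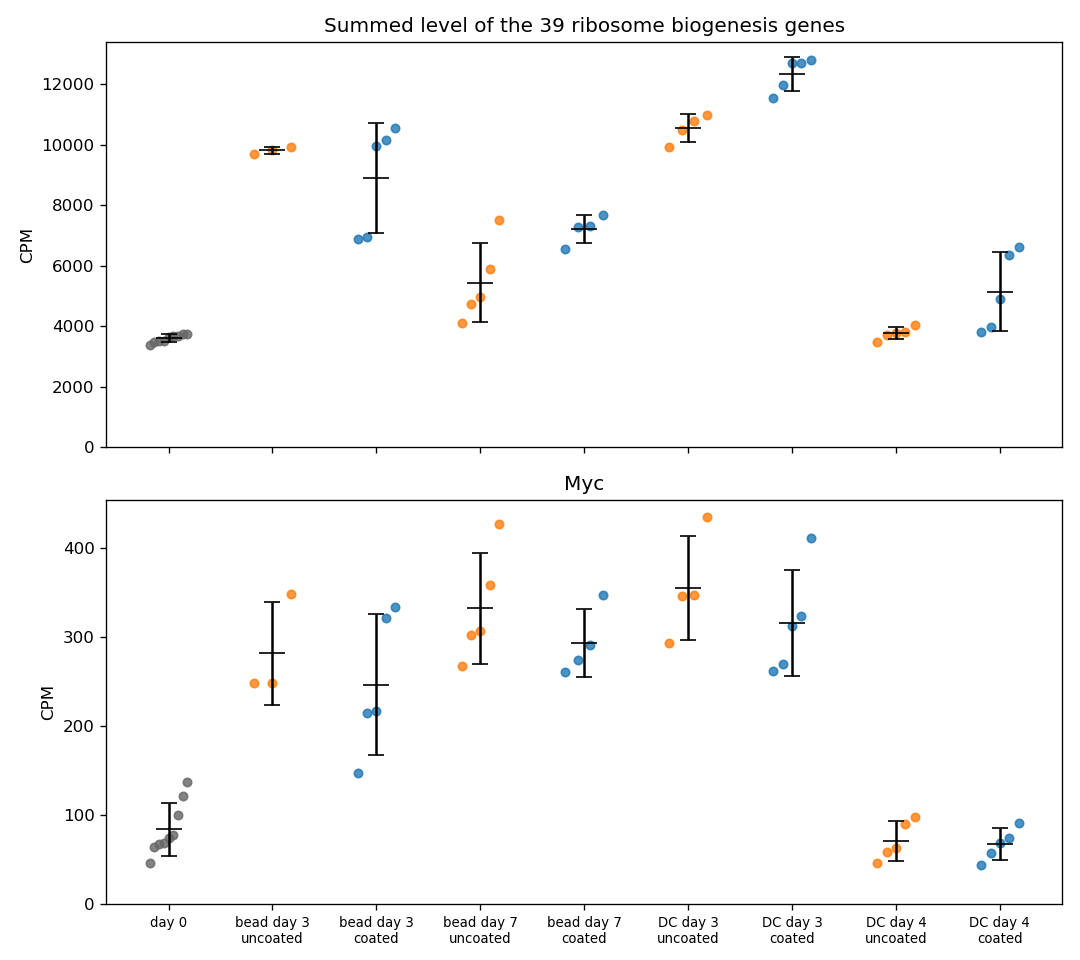
Summed level of the 39 ribosome biogenesis genes (upper panel) and level of Myc (lower panel) in CPM after TMM scaling, by group. Points are samples (grey, day 0; orange, uncoated; blue, coated) and bars are the mean ± SD. In the upper panel the coated DC day 3 samples lie between 11543 and 12809 CPM, above all others, while Myc stays high at bead day 7.

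Myc (chr15:61985391-61990374, mm10) ran from 46.2 CPM to 137 CPM over the 9 day 0 samples, with a median of 74.3 CPM. In uncoated cells it stood at 249, 249 and 349 CPM at bead day 3 and at 293, 347, 347 and 435 CPM at DC day 3. It was at 268, 303, 307, 428 and 359 CPM in uncoated bead cells at day 7, and at 46.1, 58.6, 90.5, 98.0 and 62.8 CPM in uncoated DC cells at day 4. Every uncoated sample of bead day 3, bead day 7 and DC day 3 thus lay above every day 0 sample, whereas DC day 4 overlapped with day 0. Coated samples had 147, 215, 335, 321 and 217 CPM at bead day 3, 274, 261, 292 and 347 CPM at bead day 7, and 324, 263, 270, 313 and 412 CPM at DC day 3. At DC day 4 they had 43.8, 58.3, 91.8, 68.6 and 75.0 CPM. Ordered by mean, Myc fell from uncoated DC day 3 (356 ± 58.8 CPM) through uncoated bead day 7 (333 ± 62.2 CPM), coated DC day 3 (316 ± 59.8 CPM), coated bead day 7 (294 ± 38 CPM), uncoated bead day 3 (282 ± 57.8 CPM) and coated bead day 3 (247 ± 79.2 CPM) to day 0 (84.3 ± 29.6 CPM). Uncoated DC day 4 (71.2 ± 22.1 CPM) and coated DC day 4 (67.5 ± 18 CPM) came last. Neighbours in this order lay within their spread of each other, except at the step from coated bead day 3 to day 0, where the groups did not overlap.

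In each role the member with the highest level showed its own course. Nucleolin (Ncl, chr1:86344719-86359400), an abundant RNA-binding protein of the nucleolus, took the largest share of the summed level and went from 1009 ± 83.3 CPM at day 0 (n = 9) to 3114 ± 95 CPM in uncoated DC cells at day 3 (n = 4) and back to 1314 ± 160 CPM at DC day 4 (n = 5). Nhp2 (chr11:51619735-51623714), a protein of the H/ACA snoRNPs that guide pseudouridylation, was at 173 ± 20.3 CPM at day 0, 724 ± 72.0 CPM in uncoated DC cells at day 3 and 252 ± 26.3 CPM at DC day 4. Both genes were thus lower at DC day 4 than at DC day 3 in every uncoated sample, and their day 4 means stayed above the day 0 means. Polr1b (chr2:129100995-129126594), the second largest subunit of RNA polymerase I, was among the lower members, with 10.9 ± 4.49 CPM at day 0, 54.9 ± 4.87 CPM in uncoated bead cells at day 3 (n = 3) and 18.3 ± 9.02 CPM at bead day 7 (n = 5). Wdr43 (chr17:71615895-71659031), a component of the small subunit processome, had 126 ± 23.9 CPM at day 0, 311 ± 11.3 CPM in uncoated bead cells at day 3 and 174 ± 48.6 CPM at bead day 7. Noc2l (chr4:156236010-156247616), whose yeast counterpart Noc2 acts on the large subunit precursor, had 180 ± 17.0 CPM at day 0, 454 ± 23.4 CPM in uncoated bead cells at day 3 and 244 ± 66.6 CPM at bead day 7. For these 3 genes the uncoated bead day 3 and day 7 samples did not overlap. Coated DC cells of day 3 had the highest group mean of all 5, at 3590 ± 177 CPM for Ncl, 856 ± 57.6 CPM for Nhp2, 61.4 ± 3.08 CPM for Polr1b, 402 ± 20.8 CPM for Wdr43 and 487 ± 52.5 CPM for Noc2l (n = 5).
In the other groups these genes differed in how far they came down. In coated bead cells of day 3, Ncl was at 2920 ± 582 CPM, Nhp2 at 588 ± 122 CPM, Polr1b at 35.5 ± 9.77 CPM, Wdr43 at 271 ± 62.3 CPM and Noc2l at 399 ± 107 CPM (n = 5). Coated bead cells of day 7 had 2041 ± 148 CPM of Ncl, 538 ± 16.4 CPM of Nhp2, 28.6 ± 4.86 CPM of Polr1b, 233 ± 20.2 CPM of Wdr43 and 325 ± 17.7 CPM of Noc2l (n = 4). Uncoated bead cells had 2989 ± 103 CPM of Ncl and 603 ± 37 CPM of Nhp2 at day 3 (n = 3) and 1703 ± 406 CPM and 408 ± 80.7 CPM at day 7 (n = 5). At bead day 7 each of the 5 coated means was thus above the uncoated one. Uncoated DC cells of day 3 had 48.8 ± 7.28 CPM of Polr1b, 341 ± 25 CPM of Wdr43 and 412 ± 55.8 CPM of Noc2l (n = 4), and at day 4 they had 12.3 ± 3.33, 152 ± 18.9 and 151 ± 13.1 CPM (n = 5). Coated DC cells of day 4 had 1665 ± 371 CPM of Ncl, 417 ± 124 CPM of Nhp2, 16.7 ± 5.78 CPM of Polr1b, 181 ± 31.7 CPM of Wdr43 and 200 ± 45.8 CPM of Noc2l (n = 5). Noc2l was the gene among these 5 whose mean in uncoated DC cells of day 4 lay below its day 0 mean.

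**Figure D2:**
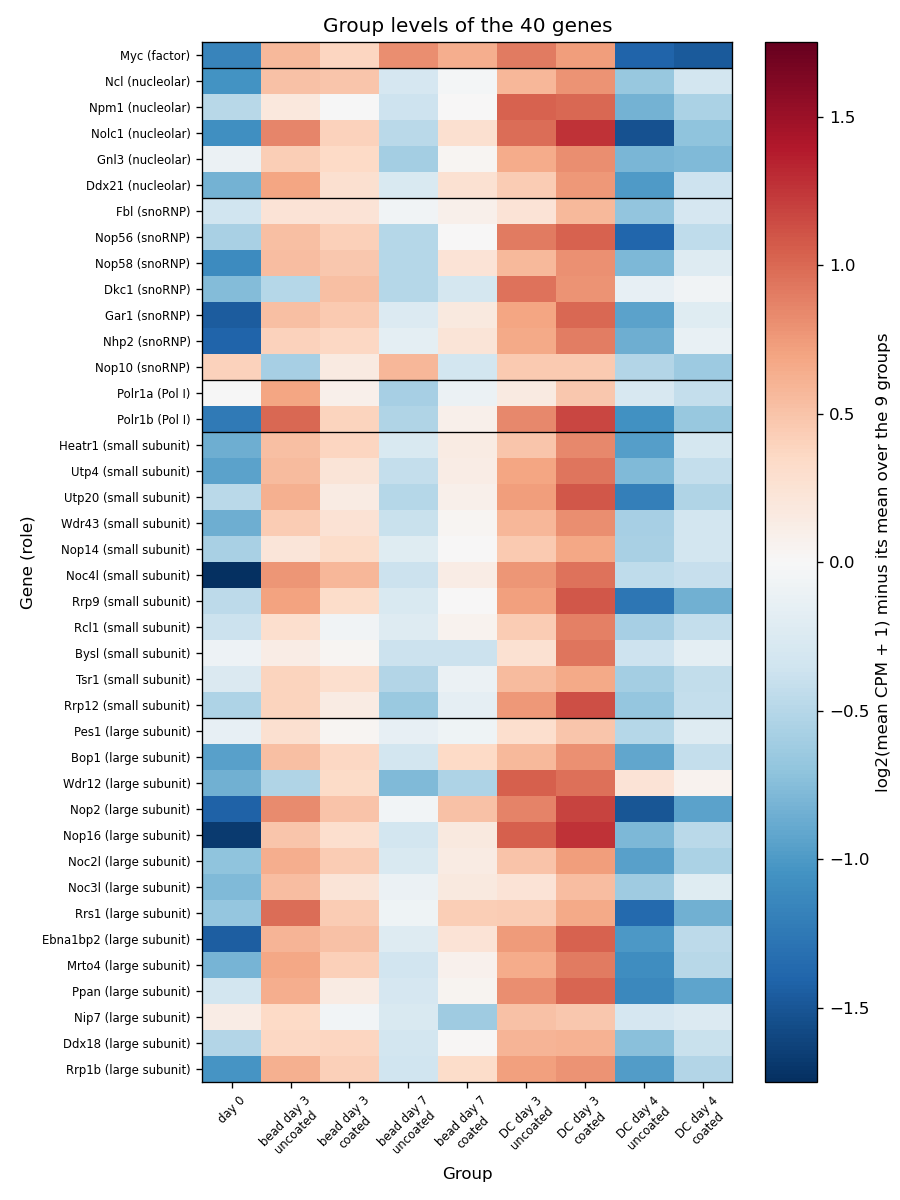
Group levels of the 40 genes, one row per gene ordered by role and one column per group, coloured by log2(mean CPM + 1) minus the mean of that value over the 9 groups. Most rows are red at day 3 and blue at day 0 and DC day 4; Myc is also red in both bead day 7 groups.

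Near-identical sequence and overlapping genes limit some members. In the last 500 bases, where MARS-seq reads fall, 11 members hold a stretch of at least 100 bases that matches another coding transcript at 95% identity or more, most of all Polr1b (46 other genes) and Nip7 (51), so reads could be split between copies. Another gene of the table lies over the last 500 bases of 8 members, among them Nhp2 (Rmnd5b), Nop56 (Idh3b) and Noc2l (Samd11), and the sources used here do not state whether the counting used strand.

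Nearly all of these genes were higher at day 3 of activation than at day 0. Against day 0, 32 of 39 tested members rose in uncoated bead cells and none fell, with a median log2 fold change of 1.26 over the members, beside 29.9% of all 8891 genes tested called higher and 35% called lower. In uncoated DC cells 36 of 39 rose and none fell, with a median of 1.40, beside 36.3% of 9259 genes called higher and 37.5% called lower. These comparisons share the day 0 samples. Across all genes the median log2 fold change was -0.115 at bead day 3 and -0.035 at DC day 3.
The gene with the largest rise was Noc4l, a factor of the small subunit known in yeast as Noc4. Its 9 day 0 samples ran from 18.6 to 34.1 CPM with a median of 27.3 CPM, and the uncoated samples had 182, 189 and 209 CPM at bead day 3 and 178, 203, 207 and 187 CPM at DC day 3. No day 3 sample came near the day 0 range, and the log2 fold change was 2.70 ± 0.15 (SE, edgeR adjusted p = 1.45e-10) for beads and 2.75 ± 0.12 (edgeR adjusted p = 1.63e-12) for DCs. Nop2, a methyltransferase of the large subunit RNA, had 44.8 to 59.3 CPM at day 0, 204, 221 and 276 CPM at bead day 3 and 212, 266, 241 and 246 CPM at DC day 3. Its rise was 2.20 ± 0.13 (edgeR adjusted p = 3.54e-10) with beads and 2.29 ± 0.10 (edgeR adjusted p = 1.91e-12) with DCs. Nop16, a large subunit factor, rose by 2.10 ± 0.25 with beads (131 ± 17.5 CPM, n = 3, against 28.8 ± 11.6 CPM, n = 9) and by 2.71 ± 0.21 with DCs (194 ± 22.2 CPM, n = 4). Myc itself rose by 1.68 ± 0.23 (edgeR adjusted p = 1.21e-05) and 2.06 ± 0.20 (edgeR adjusted p = 7.36e-08). Neither group overlapped with day 0 in any of these 4 genes. Of the members 29 with beads and 34 with DCs were higher without overlap, beside 27.3% and 29.3% of all genes.
By role, the members that rose with beads were 4 of 5 nucleolar proteins, 5 of 6 tested snoRNP proteins, 1 of 2 polymerase I subunits, 10 of 11 small subunit factors and 11 of 14 large subunit factors. With DCs the counts were 5 of 5, 6 of 6, 1 of 2, 10 of 11 and 13 of 14. The 3 members not called with DCs were Polr1a, the largest polymerase I subunit, at 0.08 (edgeR adjusted p = 0.832), Bysl at 0.36 (edgeR adjusted p = 0.359) and Nip7 at 0.41 (edgeR adjusted p = 0.0708). With beads these 3 were also not called, and neither were Npm1, Dkc1, Pes1 and Wdr12, at 0.22 to 0.60 on the log2 scale. Of 5 CD8 T cell markers 4 fell in each comparison, with median log2 fold changes of -1.72 with beads and -0.68 with DCs. Markers of other cells fell in the same comparisons: all 8 tested DC and myeloid markers, with median log2 fold changes of -7.13 with beads and -6.76 with DCs, all 5 erythroid markers, with medians of -10.69 and -9.14, and all 5 B cell markers. With these marker genes left out before scaling, 32 members were called with beads and 36 with DCs, while the part of other RNA of these cells was not tested.
Other genes of the pathway were compared in the same way. In a wider list of 95 other ribosome biogenesis factors, 57 of 87 tested rose and 8 fell with beads (median 0.80), and 69 of 88 rose and 5 fell with DCs (median 0.88). Of 29 other growth genes known as Myc targets, 24 of 27 tested rose with beads and 25 of 27 with DCs, with medians of 1.78 and 1.84. Hspd1, a mitochondrial chaperonin, reached 811 ± 89.1 CPM with beads (n = 3) and 1112 ± 101 CPM with DCs (n = 4) from 135 ± 20.4 CPM at day 0 (n = 9). Of 16 other genes of the polymerase I machinery, 5 of 13 tested rose and 2 fell with beads (median -0.03), and 7 rose and 1 fell with DCs (median 0.48), led in both by Cd3eap, a polymerase I subunit, at 1.59 ± 0.16 and 1.72 ± 0.13. The Myc network went the other way on balance: 7 of 11 tested members fell and 2 rose with beads, and 6 of 10 fell and 2 rose with DCs, with medians of -1.44 and -0.95. Mxd3, another partner of Max, was among those that rose, from 7.81 ± 3.98 CPM at day 0 (n = 9) to 77.2 ± 18.2 CPM with beads (n = 3) and 25.2 ± 3.63 CPM with DCs (n = 4). Mxd4, which competes with Myc for Max and represses, fell from 181 ± 31.6 CPM at day 0 (n = 9) to 9.04 ± 3.42 CPM with beads (n = 3) and 12.9 ± 2.49 CPM with DCs (n = 4).

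**Figure D3:**
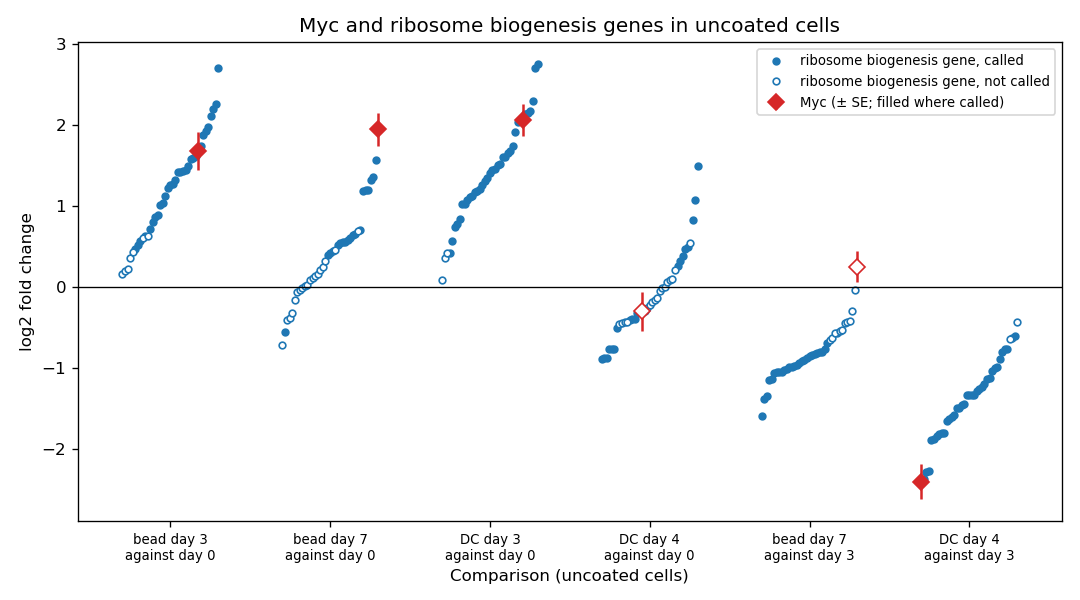
Log2 fold changes of Myc (red diamonds, ± SE) and the 38 other tested genes (blue circles, sorted by value) in uncoated cells, for the 4 activated groups against day 0 and for the later against the earlier day. Filled symbols mark edgeR adjusted p under 0.05. At bead day 7 Myc (1.94) lies above all other members, and at DC day 4 it lies at -0.30 against day 0.

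Most members were lower in DC cells at day 4 than at day 3. The days have no M number in common, so the day and the set of samples cannot be told apart. The day 3 libraries used here were those titled 120, as at day 4. In uncoated cells 37 of 39 members fell and none rose, with a median log2 fold change of -1.34, beside 30.4% of 9293 genes called lower and 30.6% called higher. In coated cells 34 of 39 fell and none rose, with a median of -1.10, beside 21.5% of 8867 genes called lower and 21.7% called higher. Markers moved in these comparisons too. In uncoated cells 4 of 5 CD8 T cell markers and 2 of 2 tested B cell markers were higher at day 4, with median log2 fold changes of 1.35 and 1.6, while none of 4 DC and myeloid or 4 erythroid markers was called (medians 1.81 and 1.53). In coated cells 4 of 5 CD8 T cell and 1 of 2 B cell markers were higher, 1 of 4 DC and myeloid markers was lower and no erythroid marker was called (medians 1.25, 1.39, -1.87 and -2.06). The B cell marker Ighm stood at 619 ± 51.3 CPM at day 3 (n = 4) and 2218 ± 241 CPM at day 4 (n = 5) in uncoated cells. The part of these markers' cells in the members' fall was not tested. Polr1a and Bysl were not called in either, and in coated cells Dkc1, Noc3l and Nip7 were not called.
Myc fell furthest of the members. In uncoated cells the day 3 libraries had 325, 351, 357 and 466 CPM, against 71.9 ± 22.3 CPM at day 4 (n = 5), and no day 4 sample reached the day 3 range. The log2 fold change of Myc was -2.40 ± 0.22 in uncoated cells (edgeR adjusted p = 2.63e-06) and -2.47 ± 0.21 in coated cells (edgeR adjusted p = 2.65e-06). Nolc1, a nucleolar chaperone of snoRNPs, had 511, 967, 816 and 672 CPM in the uncoated day 3 libraries and 143 ± 14.7 CPM at day 4, a change of -2.37 ± 0.16 (edgeR adjusted p = 1.15e-08). Nop56, a core protein of the C/D snoRNPs that guide methylation, had 576, 663, 648 and 540 CPM at day 3 and 124 ± 17.6 CPM at day 4, a change of -2.29 ± 0.12 (edgeR adjusted p = 2.98e-10). In both genes all day 4 samples lay far below all day 3 libraries. Of the 39 members 35 were lower without overlap in uncoated cells, beside 24.2% of all genes. Nop2 fell by 2.27 ± 0.14 on the log2 scale in uncoated and by 1.98 ± 0.29 in coated cells, and in coated cells Rrp9, a protein of the U3 snoRNP, and Ppan, a large subunit factor, fell by 1.87 ± 0.23 and 1.86 ± 0.22. All 5 nucleolar proteins fell in both, as did 10 of 11 small subunit factors. The snoRNP proteins fell in 6 of 6 cases without and 5 of 6 with the coating, and the large subunit factors in 14 of 14 and 12 of 14.
Other genes of the pathway moved with them: 69 of 88 other ribosome biogenesis factors fell in uncoated and 65 of 88 in coated cells, and 27 of 28 and 24 of 27 other Myc-target growth genes fell. Hk2, a glycolytic hexokinase, went from 63.8 ± 8.79 CPM (n = 4) to 4.83 ± 0.544 CPM (n = 5) in uncoated cells. The repressor Mxd4 rose from 12 ± 1.71 CPM (n = 4) to 293 ± 27.4 CPM (n = 5), a log2 fold change of 4.60 ± 0.14 (edgeR adjusted p = 7.59e-13).

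Set against day 0, the DC cells of day 4 were mixed. In uncoated cells 8 of 39 members were higher and 12 lower, with a median log2 fold change of -0.23, beside 26% of 9365 genes called higher and 28.9% called lower. Myc did not differ past the threshold (-0.30 ± 0.24, edgeR adjusted p = 0.286). Noc4l was the furthest above day 0, with 75.0, 85.0, 94.6, 83.9 and 74.3 CPM against at most 34.1 CPM, a log2 fold change of 1.49 ± 0.13 (edgeR adjusted p = 1.20e-08). Nhp2 and Gar1, both H/ACA snoRNP proteins, stayed above day 0 by 0.49 ± 0.11 and 0.47 ± 0.10. Nop56, of the C/D snoRNPs, was below day 0, with 101, 115, 124, 128 and 148 CPM against 179 to 274 CPM, a log2 fold change of -0.90 ± 0.13 (edgeR adjusted p = 6.38e-06). Nolc1 was also lower, at -0.51 ± 0.11 (142 ± 14.6 CPM, n = 5, against 193 ± 20.7 CPM, n = 9). These 5 genes, 3 higher and 2 lower, were the members whose groups did not overlap, beside 15.6% of all genes not overlapping and higher and 14.8% lower. Of 5 CD8 T cell markers 3 were higher and 1 was lower than at day 0. All 8 tested DC and myeloid and all 5 erythroid markers fell here too, with median log2 fold changes of -5.26 and -7.78. With these marker genes left out before scaling, 20 members were called, while the part of other RNA of these cells was not tested.

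Uncoated bead cells kept Myc high to day 7 while most ribosome biogenesis genes came down. In uncoated cells no member rose and 28 of 39 fell from day 3 to day 7, with a median log2 fold change of -0.85, beside 10.8% of 9024 genes called lower and 11.9% called higher. Myc was 0.24 ± 0.19 higher on the log2 scale, which did not pass the test (edgeR adjusted p = 0.383). Polr1b had 59.5, 49.8 and 55.2 CPM at day 3 and 29.1, 18.6, 9.06, 25.3 and 9.66 CPM at day 7, a change of -1.6 ± 0.35 (edgeR adjusted p = 9.62e-03). Nolc1 had 731, 785 and 717 CPM at day 3 and 474, 373, 167, 241 and 218 CPM at day 7, a change of -1.34 ± 0.29 (edgeR adjusted p = 0.0106). Neither gene overlapped between the days, and in both the M1 sample was the highest of day 7. Of the members 28 were lower without overlap, beside 14.5% of all genes. Noc4l fell by 1.16 ± 0.15 on the log2 scale (edgeR adjusted p = 5.60e-04) and Polr1a by 1.38 ± 0.46 (edgeR adjusted p = 0.0498). The call of Polr1a was lost in 7 of 8 fits without 1 sample, all but that without the day 7 M1 sample, and also with no filter, with the M number as a block and without M3 and M4 of day 7 (edgeR adjusted p up to 0.158 over all alternatives). The fall took 4 of 5 nucleolar proteins, 4 of 6 snoRNP proteins, both polymerase I subunits, 8 of 11 small subunit and 10 of 14 large subunit factors. Without the M1, M2 or M4 sample of day 3 the number of members called was 16, 18 or 14, all lower. The uncoated day 7 samples M3 and M4 carried erythroid markers at 485 and 818 CPM, against at most 15.6 CPM in the coated group, and without both of them 21 members were called, all lower.
In coated bead cells Ncl was the 1 member called. It went from 2221, 3534, 3400, 3021 and 2424 CPM at day 3 to 2228, 1866, 2017 and 2051 CPM at day 7, a change of -0.52 ± 0.12 (edgeR adjusted p = 0.0219). The groups overlapped through the M1 sample of each day. Of all 8793 genes tested, 2.73% were called lower and 3.65% higher, so the members' share of 2.56% was near that of all genes. The members had a median of -0.23. Member sums of the coated day 3 samples ran from 7038 to 10879 CPM. Whether the change from day 3 to day 7 differs between coated and uncoated bead cells was not tested. The count was 2 without the M1 and 3 without the M5 sample of day 3, and 0 without the M2 or M4 sample of day 3 or the M1, M2 or M5 sample of day 7.
Against day 0, uncoated bead cells of day 7 still had 19 members higher and 1 lower, beside 30.1% of 9281 genes called higher and 30.8% called lower, with a median of 0.41. Myc was higher by 1.94 ± 0.20 (edgeR adjusted p = 1.47e-07). Nhp2, Noc4l, Nop2 and Nop16 were higher by 1.20 ± 0.13, 1.57 ± 0.14, 1.35 ± 0.18 and 1.32 ± 0.24, and none of their groups overlapped. Among the 39 members 8 were higher without overlap, beside 18.3% of all genes. Gnl3 (nucleostemin), a nucleolar GTP-binding protein, was the called member that was lower, with 42.6 ± 11.5 CPM (n = 5) against 60.5 ± 11.1 CPM (n = 9), a change of -0.56 ± 0.18 (edgeR adjusted p = 0.0123). The count of members called was 13 without the M1 and 13 without the M2 sample of day 7.
Among the other genes of the pathway, 38 of 88 other ribosome biogenesis factors and 14 of 27 other Myc-target growth genes fell from day 3 to day 7 in uncoated bead cells. Mycn, the neural relative of Myc, was at 44.6 ± 9.69 CPM in uncoated bead cells at day 7 (n = 5) against 1.52 ± 1.54 CPM at day 0 (n = 9), and in coated bead cells it rose from 16.1 ± 9.58 CPM at day 3 (n = 5) to 48.9 ± 5.37 CPM at day 7 (n = 4). Mxd4 rose in uncoated bead cells from 9.04 ± 3.42 CPM (n = 3) to 92.9 ± 33.2 CPM (n = 5).

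At day 3 the DC and bead cells could be compared at a matched day. Without the coating, 2 of 39 members were higher in DC cells and 1 was lower, beside 11.4% of 8907 genes called higher and 13.8% called lower. Nop56 had 617, 657, 618 and 549 CPM with DCs and 475, 501 and 429 CPM with beads, a difference of 0.35 ± 0.11 on the log2 scale (edgeR adjusted p = 0.0276). It was not called in 4 of 7 fits without 1 sample (bead M1 or M4, DC M1 or M4), with the libraries titled 30 alone or with all groups in 1 fit, where its edgeR adjusted p was highest at 0.26. Nop16 was higher by 0.51 ± 0.12 (edgeR adjusted p = 6.75e-03). Rrs1, a large subunit factor that brings the 5S particle to the precursor, was lower, with 114, 110, 129 and 113 CPM against 162, 167 and 181 CPM, a difference of -0.57 ± 0.11 (edgeR adjusted p = 8.14e-04). The groups did not overlap in any of these 3 genes. Among the 39 members 6 were higher and 2 lower without overlap, beside 16.7% of all genes in each direction. Ncl differed by 0.03 ± 0.09 (edgeR adjusted p = 0.865) and Myc by 0.30 ± 0.14 (edgeR adjusted p = 0.146), which was called (0.49) without the M4 bead sample.
With the coating, 26 of 39 members were higher in DC cells and none lower, with a median log2 difference of 0.49, beside 18.6% of 9258 genes called higher and 20.7% called lower. Utp20, a large scaffold protein of the small subunit processome, had 96.1, 94.0, 86.5, 89.1 and 92.9 CPM with DCs and 37.4, 54.9, 53.2, 47.6 and 43.7 CPM with beads. The DC samples were all higher, and the difference was 0.95 ± 0.11 (edgeR adjusted p = 5.02e-06). Npm1 (nucleophosmin, 37.0 ± 7.51 CPM against 17.9 ± 3.38 CPM), Rrp12 (110 ± 7.09 CPM against 54.9 ± 12.2 CPM) and Nop16 (225 ± 14.0 CPM against 115 ± 24.8 CPM) were higher by 1.01 ± 0.19, 1.00 ± 0.14 and 0.97 ± 0.12 (n = 5 each), again without overlap. In all, 16 of 39 members were higher without overlap, beside 12.7% of all genes. By role, 10 of 11 small subunit factors, 8 of 14 large subunit factors, 4 of 5 nucleolar proteins and 3 of 6 snoRNP proteins were called. Myc was not called (0.35 ± 0.20, edgeR adjusted p = 0.183). The coated bead samples M1 and M5 had member sums of 7038 and 7153 CPM, below the other 3 at 10291 to 10879 CPM. With only the DC libraries titled 120, 11 members were called. In this comparison 3 of 4 tested DC and myeloid markers and 4 of 4 erythroid markers were also higher in DC cells, and their part was not tested. Of the other ribosome biogenesis factors 52 of 89 were higher and 3 lower.

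The coating went with higher levels of part of these genes in DC cells at day 4. There 9 of 39 members were higher in coated cells and none lower, with a median log2 fold change of 0.34, beside 9.46% of 9159 genes called higher and 8.92% called lower. The 9 were the snoRNP proteins Nop56 (0.93), Gar1 (0.71), Nhp2 (0.71) and Nop58 (0.54), the nucleolar proteins Nolc1 (0.80) and Ddx21 (0.61), the small subunit factor Heatr1 (0.64), and the large subunit factors Mrto4 (0.59) and Ebna1bp2 (0.53). Nhp2 had 390, 564, 529, 301 and 303 CPM in coated cells of M6 to M10 and 224, 282, 227, 255 and 273 CPM in uncoated cells, a fold change of 0.71 ± 0.17 on the log2 scale (edgeR adjusted p = 0.0118). Its coated samples all lay above its uncoated ones, and it was the 1 member without overlap, beside 6.53% of all genes not overlapping and higher. Nop56 had 204, 285, 384, 184 and 132 CPM with the coating and 115, 124, 128, 148 and 101 CPM without it. Here the coated M10 sample lay within the uncoated range and the coated M8 sample was the highest. Myc did not differ past the threshold (-0.10 ± 0.25, edgeR adjusted p = 0.816).
The samples within the coated group differed from each other. The summed members stood at 4928, 6419, 6711, 4055 and 3899 CPM in coated cells of M6 to M10 and at 3865, 4096, 3567, 3822 and 3850 CPM in uncoated cells. The coated M6, M7 and M8 samples were above all uncoated ones, and the coated M9 and M10 samples lay within the uncoated range. Same-numbered samples are paired here by their shared deviations, and the coated sum was above the uncoated one in 5 of 5 pairs, as was Nop56. Leaving out 1 sample changed the count of members called. It was 4, 1, 4, 13 and 15 without the coated M6, M7, M8, M9 and M10 sample and 1, 5, 5, 3 and 2 without the uncoated sample of the same M number, with none lower. Without both samples of M8 the count was 4. With the M number as a block, 13 members were higher. The uncoated M8 sample carried DC and myeloid markers at 1368 CPM, against 68.2 to 290 CPM in coated cells, and their part was not tested. In this comparison the authors' deposited table gives an adjusted p under 0.05 to 10 members of 1519 genes in all, all 10 higher in coated cells: these 9 and Utp20 (log2 fold change 0.62 in the authors' deposited table).
Among the other genes of the pathway 15 of 87 other ribosome biogenesis factors and 14 of 28 other Myc-target growth genes were higher in coated DC cells at day 4, and none was lower. Ranbp1, a cofactor of nuclear transport, was at 472 ± 118 CPM with and 239 ± 34.7 CPM without the coating (n = 5 each), a fold change of 0.96 ± 0.16 (edgeR adjusted p = 1.90e-03). Mxd1, a partner of Max that represses, was lower, at 9.67 ± 3.21 CPM against 20.4 ± 3.19 CPM, a fold change of -1.07 ± 0.22 (edgeR adjusted p = 5.21e-03).

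**Figure D4:**
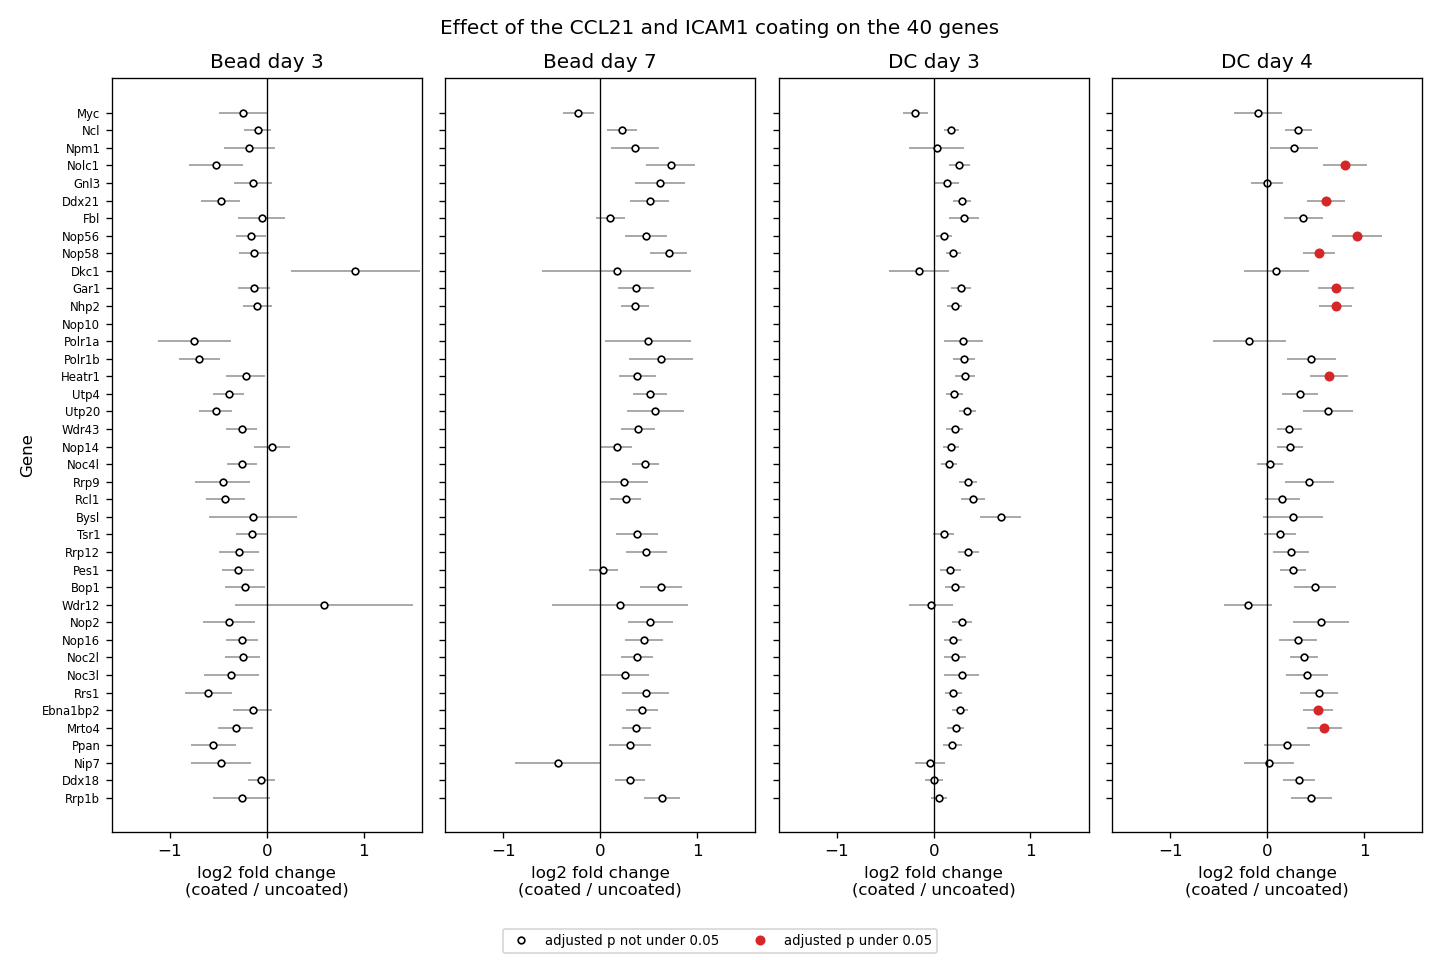
Log2 fold change of coated over uncoated cells (± SE) for the members tested, by activation and day; filled red symbols mark edgeR adjusted p under 0.05. At DC day 4, 9 members are filled; at DC day 3 and bead day 7 most open symbols lie to the right of 0, and at bead day 3 they lie to the left.

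In DC cells at day 3 no member was called for the coating in edgeR, beside 0.166% of 10245 genes called higher and 0.224% called lower. An unadjusted p under 0.05 was reached by 22 of the 39 members, beside 12.4% of all genes (1267), and DESeq2 called 1. The median log2 fold change was 0.22. Ncl had 3312, 3613, 3737, 3742 and 3547 CPM in coated cells and 2993, 3190, 3083 and 3189 CPM in uncoated cells, a fold change of 0.18 ± 0.08 (edgeR adjusted p = 0.348). It was among 8 members whose coated samples all lay above all uncoated ones, the others being Heatr1, Utp20, Wdr43, Noc4l, Rrp9, Rrp12 and Ebna1bp2, beside 2.93% of all genes not overlapping and higher. Myc was at -0.19 ± 0.13 (edgeR adjusted p = 0.576). Coated cells have 5 libraries titled 30 and 4 titled 120, and uncoated cells 3 and 4. Within the libraries titled 120 and within those titled 30, no member was called and the medians were 0.18 and 0.15. The separation of Ncl was not seen within either title number. Titled 120, it had 2677, 3026, 2069 and 3052 CPM in coated and 2506, 3222, 2984 and 2863 CPM in uncoated cells. Titled 30, it had 3635, 4302, 3775, 3887 and 3688 CPM in coated and 3413, 3328 and 3877 CPM in uncoated cells. Without the coated M1 sample 2 members were called, and 1 was called with the M number as a block.
In bead cells at day 3 no member was called in edgeR either, beside 0.0445% of 8985 genes called higher and 0.0556% called lower. An unadjusted p under 0.05 was reached by 6 of 39 members, a share near the 11.2% of all genes (1006), and DESeq2 called 0. The median was -0.26, and 36 of 39 values were below 0. Polr1b had 22.3, 41.7, 40.2, 45.1 and 28.1 CPM in coated cells and 59.5, 49.8 and 55.2 CPM in uncoated cells. All its coated samples were lower, and the fold change was -0.70 ± 0.21 (edgeR adjusted p = 0.265). Utp20 was the other member without overlap, at -0.53 (edgeR adjusted p = 0.283), beside 2.89% of all genes not overlapping and lower. Of 4 tested DC and myeloid markers 2 were called lower in coated cells, and the median over the 4 was -1.49. They were H2-Aa, at 5.6 against 26 CPM, and Cd74, at 14.6 against 54.9 CPM. The part of these markers' cells was not tested.
At bead day 7 no member was called in edgeR, beside 0.368% of 8696 genes called higher and 1.41% called lower. Here 17 of 38 tested members had an unadjusted p under 0.05, beside 22.5% of all genes (1957), DESeq2 called 3, and the median was 0.38. Nolc1 had 484, 480, 491 and 542 CPM in coated cells and 474, 373, 167, 241 and 218 CPM in uncoated cells, without overlap, and its fold change of 0.73 had an edgeR adjusted p of 0.133. Nhp2, Noc4l, Mrto4 and Rrp1b also had no overlap, beside 5.27% of all genes not overlapping and higher. Without the uncoated M1 sample, which had the highest Nolc1 value of its group, 8 members were called, and without the uncoated M2 sample 1 was. Erythroid markers ran from 7.15 to 818 CPM in uncoated cells, highest in M3 and M4, and from 8.71 to 15.6 CPM in coated cells. DC and myeloid markers ran from 7.94 to 389 CPM and from 7.65 to 12 CPM, and the part of these cells was not tested. At bead day 7 an adjusted p under 0.05 stands in the authors' deposited table for 850 genes, of which 4 are members: Nolc1, Nop58, Noc4l and Rrp1b, with log2 fold changes of 0.72, 0.70, 0.46 and 0.63 in the authors' deposited table. For DC day 3 and bead day 3 the authors' deposited table has 0 members with an adjusted p under 0.05.

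Whether the coating effect differs was tested directly in 2 contrasts. Between DC day 4 and DC day 3, with libraries titled 120, no member was called in edgeR, beside 2.14% of 9794 genes called higher and 1.2% called lower. An unadjusted p under 0.05 was reached by 6 of 39 members, a smaller share than the 19.1% of all genes (1872). The median difference of the coating effects was 0.24, and that of Nhp2 was 0.50 ± 0.22 (edgeR adjusted p = 0.216). Without the coated M10 sample of day 4, 1 member was called. Between DC and bead cells at day 3 the coating effect was higher with DCs for 2 members, Polr1b (0.995 ± 0.24, edgeR adjusted p = 0.0432) and Utp20 (0.85 ± 0.17, edgeR adjusted p = 0.0190), beside 0.308% of 10075 genes called higher and 0.754% called lower. Utp20 in uncoated cells had 71.2, 73.4, 71.8 and 69.2 CPM with DCs and 60.1, 75.4 and 62.4 CPM with beads, so its coated samples were above the uncoated ones with DCs and below them with beads. The count was 0 without the M2 or the M4 uncoated bead sample or the M5 uncoated DC sample, and 5 without the M3 coated bead sample. It was 1 without each of 7 other samples: M1 or M5 of coated bead cells, M1 of uncoated bead cells, M2, M3 or M4 of coated DC cells, and M1 of uncoated DC cells. With only the DC libraries titled 120, or only those titled 30, it was 0.

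The DC day 3 libraries titled 120 and 30 differed, and Myc differed in the opposite direction from the other called members. There were 8 libraries of each, of which 7 pairs shared an M number and a coating. With M number and coating in the fit, Myc was higher in libraries titled 120 and 13 of 39 members were lower, beside 6.5% of 8773 genes called higher and 5.36% called lower. In the pairs Myc stood at 367 against 297, 266 against 245, 365 against 288 and 458 against 354 CPM in coated cells of M1, M2, M4 and M5. In uncoated cells of M1, M4 and M5 it stood at 325 against 254, 357 against 329 and 466 against 356 CPM. The library titled 120 was higher in 7 of 7 pairs, and the log2 fold change was 0.34 ± 0.07 (edgeR adjusted p = 1.49e-03).
Ncl ran from 2069 to 3052 CPM in the paired libraries titled 120 and from 3328 to 4302 CPM in those titled 30. It was lower at 120 in 7 of 7 pairs, without overlap, with a log2 fold change of -0.38 ± 0.07 (edgeR adjusted p = 4.81e-04). Rcl1 (-0.54 ± 0.11), Rrp12 (-0.50 ± 0.10), Fbl (-0.48 ± 0.13) and Ddx21 (-0.42 ± 0.10) had the largest drops among the called members. Mrto4, a large subunit factor, also had no overlap, at -0.39 ± 0.07. Rcl1 acts on the cleavage of the small subunit precursor, Rrp12 on its export, and fibrillarin (Fbl) is the methyltransferase of the C/D snoRNPs. Summed over the members, the pairs had 10322 against 12612, 11647 against 14529, 8961 against 13191 and 11305 against 12440 CPM in coated cells. In uncoated cells they had 8608 against 11589, 10820 against 11944 and 10067 against 12649 CPM, so the library titled 120 was lower in every pair. Without M number in the fit 8 members were called. All 4 tested DC and myeloid and all 4 erythroid markers had positive values here, with median log2 fold changes of 1.46 and 1.19, but none was called. Cd8b1 was the 1 of 5 CD8 T cell markers called, at 0.30 ± 0.07 (edgeR adjusted p = 6.68e-03), and the part of these cells was not tested. Among the other genes of the pathway 22 of 89 other ribosome biogenesis factors were lower and 1 was higher, while Hk2 and Ldha, both of glycolysis, were higher by 0.62 ± 0.10 and 0.30 ± 0.06.

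**Figure D5:**
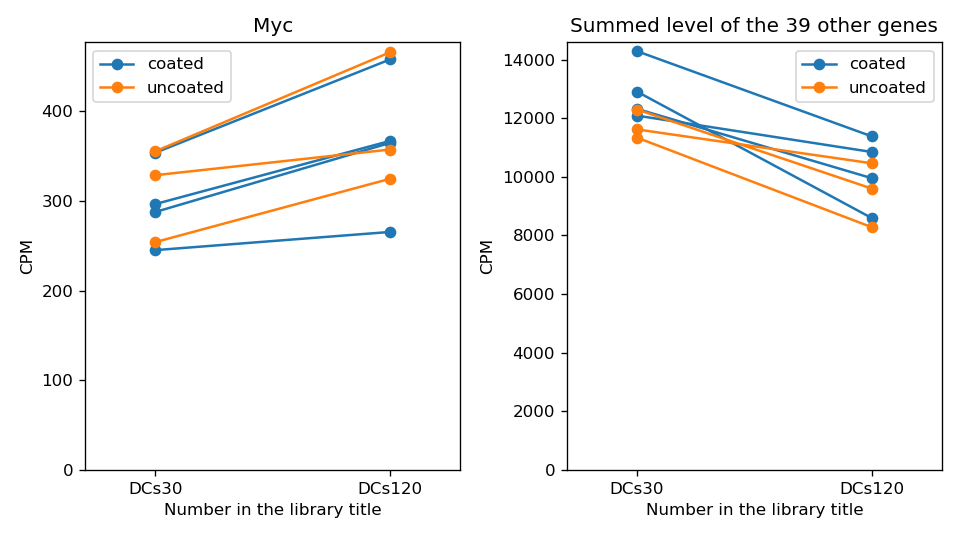
Level of Myc (left) and summed level of the other 39 genes (right) in CPM in the 7 pairs of DC day 3 libraries that share an M number and a coating, by the number in the title. Lines join a pair (orange, uncoated; blue, coated); Myc rises and the sum falls from 30 to 120 in all 7 pairs.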

How the data were processed

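Bulk MARS-seq counts of 52 libraries were used. Per the submitters' processing notes, the tools were bcl2fastq, cutadapt, STAR 2.4.2a, HTSeq and DESeq2 and the build mm10; whether reads of 1 molecule were collapsed and whether strand was used is not given in the sources used here. The deposited table holds whole-number counts without normalization. It also holds the authors' log2 fold changes and adjusted p-values, in 2 deposited columns for each of 4 coating comparisons.

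Groups came from the labels, and DC day 3 libraries were summed per M number and coating. In each of 17 comparisons genes passed filterByExpr (minimum count 10, minimum total 15) and TMM scaling. The test, two-sided, was quasi-likelihood by edgeR 4.0.16 (R 4.3.3, robust), and p-values were adjusted by Benjamini and Hochberg's method across every gene that passed. A fit held no other groups than those compared, and the procedure was tested on simulated data. Levels are CPM over all samples, and those of DC day 4 against day 3 and of single libraries are CPM over all libraries. The SE is the log2 fold change divided by the root of F. Of 142 pairs of libraries within groups, 0 were identical and all differed by more than sampling noise.

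Members and lists were chosen with earlier results of these data known. Myc, the most abundant member of each role, and up to 4 called members per direction with the largest change and no overlap were named in each comparison, with up to 3 called against the main direction and up to 3 genes per list by smallest p; overlap was not asked of the DCs120 against DCs30 comparison and of differences of effects. Members named otherwise, mostly complete sets of those called or not called, were chosen after their values were seen. Same-numbered samples deviated together (r over 0.1 in every pair) in coated against uncoated DC cells at day 4 (0.16 to 0.387, 5 pairs) and day 3 (0.116 to 0.27, 4 pairs) and in uncoated bead cells of day 7 and day 3 (0.138 to 0.281, 3 pairs). Alternatives were DESeq2 1.42.0, its scaling in edgeR, no filter, all groups in 1 fit, the M number as a block, libraries titled 120 or 30 alone, leaving out each sample, and leaving out marker genes of DC, myeloid, B and erythroid cells. Sequences and gene positions come from RefSeq (GRCm38.p6) and GENCODE (mm10).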

Additional observations from a re-analysis of the deposited data

Results flagged for a closer look

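Of 56 sets of group values tested, 1 held a sample far from the others, a smaller share than the about 1 in 20 that chance gives. It was Polr1b in uncoated DC cells at day 4, with 18.1 CPM in M8 and 9.82 to 12 CPM in the other 4 samples. The same M8 sample had DC and myeloid markers at 1368 CPM and erythroid markers at 1174 CPM, and their part in the Polr1b value was not tested.

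The coating effect at day 3 differed between DC and bead cells for 2 members by a test of the difference itself. For Polr1b it was higher with DCs by 0.995 on the log2 scale (edgeR adjusted p = 0.0432), and for Utp20 by 0.85 (edgeR adjusted p = 0.0190). In both genes the coated mean was above the uncoated mean with DCs and below it with beads.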

How the results depend on the processing

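Of 138 values of named members, 83 were called and 67 of these were called under all alternatives run. Of 2506 alternative values 89 lost and 22 gained a call, and no called value changed direction. Counts of members called that moved by over 1.5 times were these, and the cause was not tested. With the M number as a replicate block (pairing), DC day 3 coating went from 0 to 1, bead day 3 coating from 0 to 1, coated bead day 7 against day 3 from 1 to 0, uncoated DC against bead at day 3 from 3 to 9 and the difference of coating effects between DC and bead from 2 to 10; of these only DC day 3 is paired by the check above. Coated against uncoated DC cells of day 4 had 13, and the block changed no other count by that much. With DESeq2 the coating counts were 1 at DC day 3, 3 at bead day 7 and 5 for the difference between DC and bead. With all groups in 1 fit they were 4 at bead day 7, 1 for uncoated DC against bead, 2 for coated bead day 7 against day 3 and 0 for the difference between DC and bead. With libraries titled 120 alone, uncoated DC against bead had 5, coated DC against bead 11 and the difference 0; with those titled 30 alone, the first had 5 and the last 0. Without both M8 samples DC day 4 coating had 4 (chosen after seeing the data), and without M number the 120 against 30 comparison had 8. Leaving out 1 sample gave 1 to 15 at DC day 4 coating, 0 to 2 at DC day 3, 0 to 0 at bead day 3, 0 to 8 at bead day 7, 13 to 22 for uncoated bead day 7 against day 0, 14 to 31 for uncoated bead day 7 against day 3, 0 to 3 for coated, 0 to 1 for the difference between DC days and 0 to 5 for that between DC and bead. Low counts limit Nop10, Bysl, Polr1a and Nip7.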
